A study of Mus musculus with 2 samples.

Results

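The genes described here encode the proteins of the cytosolic ribosome. They were chosen by symbol: a row belonged to the set when its symbol was Rpl or Rps followed by a number and, in some cases, a letter for a paralog or variant, or was Rplp0, Rplp1, Rplp2 or Rpsa. The kinases whose symbols start with Rps6k were left out. The rule took 84 of the 31252 gene rows, and 82 of these 84 were among the 15249 genes that reached 10 counts on average over both libraries, which is the minimum used throughout for a fold change.

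Ventral midbrain RNA was taken from mice aged 2 months, on an incipient congenic C57BL/6 background, with 1 library labelled Ctrl and 1 labelled OE. Mice of both groups carried Cre recombinase at the dopamine transporter gene Slc6a3, so that Cre acts in dopaminergic (DA) neurons, and OE mice alone carried the ROSA26 CAG-S-COUP-TFII allele, from which Cre switches on the nuclear receptor COUP-TFII. The study bred both groups as littermates from parents that also brought a floxed Tfam allele and a ROSA26-tdTomato reporter, so the mice of this cross share these alleles too, and it used males and females. The labels name the cell type as dopaminergic neurons, but the tissue taken was the whole ventral midbrain, in which DA neurons are mixed with other neurons and with glia. In such bulk tissue, fewer cells of a type and less RNA per cell cannot be told apart.

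The libraries held 16984330 counts (labelled Ctrl) and 21326625 counts (labelled OE), rounded from the deposited expected counts. With 1 library per group there was no replicate and no test between genotypes. Each log2 fold change below is the library labelled OE over that labelled Ctrl after TMM scaling, with an exact 95% Clopper-Pearson interval on the split of the counts. These intervals cover counting error only and compare both libraries, not the conditions. Nr2f2, the gene for COUP-TFII, had 637 counts in the library labelled Ctrl against 377 in that labelled OE, for a log2 fold change of -1.07 (interval -1.26 to -0.88). The overexpressed gene therefore went against the labels, and each direction below is one between the libraries as labelled.

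Each ribosome is built from a small (40S) subunit, which binds mRNA and reads the codons, and a large (60S) subunit, which joins the amino acids and holds the tunnel through which the new chain leaves. Nearly every ribosomal protein is present in 1 copy per ribosome, and cells make them in matched amounts with the ribosomal RNA. Their mRNAs are short and abundant, and most start with a C followed by a run of pyrimidines, the terminal oligopyrimidine (TOP) tract, through which mTOR signalling controls their translation.

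Ribosomal protein mRNAs were among the most abundant in both libraries. Levels between genes are given as TMM-scaled CPM (a gene's share of its library) per kilobase of transcript, as the mean of both libraries. The 82 genes had a median level of 186, against 8.17 over the 14481 tested genes with a transcript length. Of the 82 genes, 77 were in the top 10% of these genes and 17 were in the top 1%. The 1st in order was Rpl26, a protein beside the exit of the peptide tunnel, at 412 in the library labelled Ctrl and 394 in that labelled OE. Next came Rpl3, which lies near the catalytic centre, at 369 and 362, and Rps6, the substrate of the S6 kinases, at 371 and 357. Rpl23a at 354 and 370, Rps15 at 346 and 375 and Rpl9 at 339 and 370 followed. In the library labelled Ctrl the counting intervals of Rpl3 (361 to 377), Rps6 (361 to 381) and Rpl23a (343 to 367) overlapped, so their order was not resolved at this depth. Rps29 had a level of 284 in the library labelled Ctrl and 414 in that labelled OE, where its counting interval overlapped that of Rpl26. Rpl31, Rps3a1 and Rpl41 completed the highest 10, with mean levels of 328, 328 and 316. The order of all 82 levels was nearly the same in both libraries, with a Spearman correlation of 0.98 across these genes, which share the libraries and are not replicates.

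**Figure D1:**
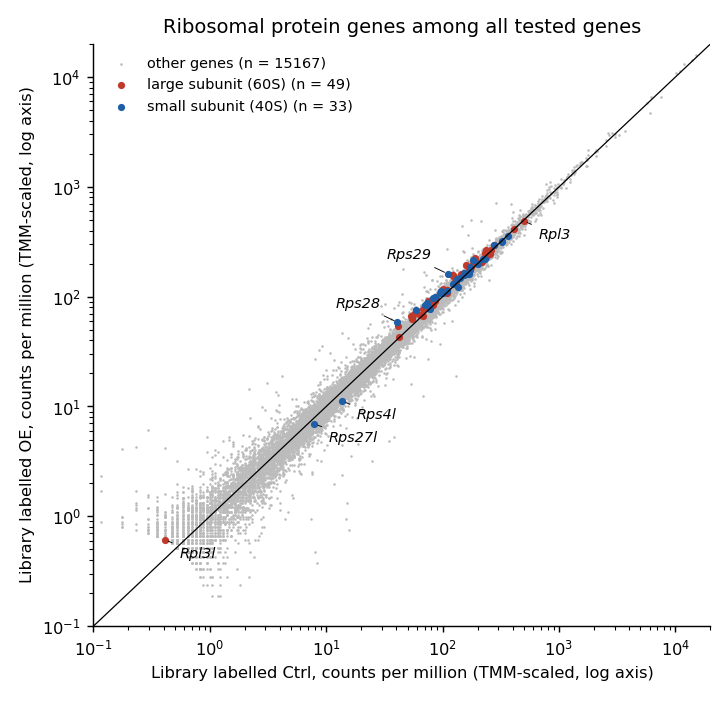
TMM-scaled CPM of each tested gene in the library labelled Ctrl (x axis) and in that labelled OE (y axis), both log axes, with 49 large subunit genes in red, 33 small subunit genes in blue and the 15167 other genes in grey. The line marks equal levels. Most ribosomal protein genes lie in a narrow cloud slightly above the line, with Rps29 and Rps28 well above it and Rps4l and Rps27l below it, and Rpl3l, also above it, lies apart at the low end with 7 and 13 counts.

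Summed over the 84 genes, ribosomal protein mRNAs took 203719 counts, or 1.20% of the library labelled Ctrl, and 268426 counts, or 1.26% of the library labelled OE. The log2 fold change of this sum was 0.085 (interval 0.077 to 0.093). As single genes, 63 of the 82 were above 0, where 51.1% of all tested genes were. Their median log2 fold change was 0.095, against 0.0046 over all tested genes, and their quartiles were 0.0089 and 0.21, against -0.13 and 0.14 over the other genes. Higher by more than log2 0.2, the threshold of the study, were 23 of the 82 (28.0%), against 17.9% of all tested genes. Lower by as much was 1 of the 82 (1.22%), against 16.6%. The set as a whole was therefore shifted by a small amount towards the library labelled OE, and few of its members were on the lower side. By counting error alone, 44 intervals lay above 0 (53.7%) and 6 below (7.32%), where 15.9% and 14.4% of all tested genes did. These shares are not set at like depth, since intervals narrow as counts rise. Members had median counts of 2141.5 (labelled Ctrl) and 3108.5 (labelled OE), whereas tested genes start at a mean of 10. The other 32 members could not be told from equal levels at this depth, and the median half-width of an interval was 0.080 for members that reached 100 counts on average.

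**Figure D2:**
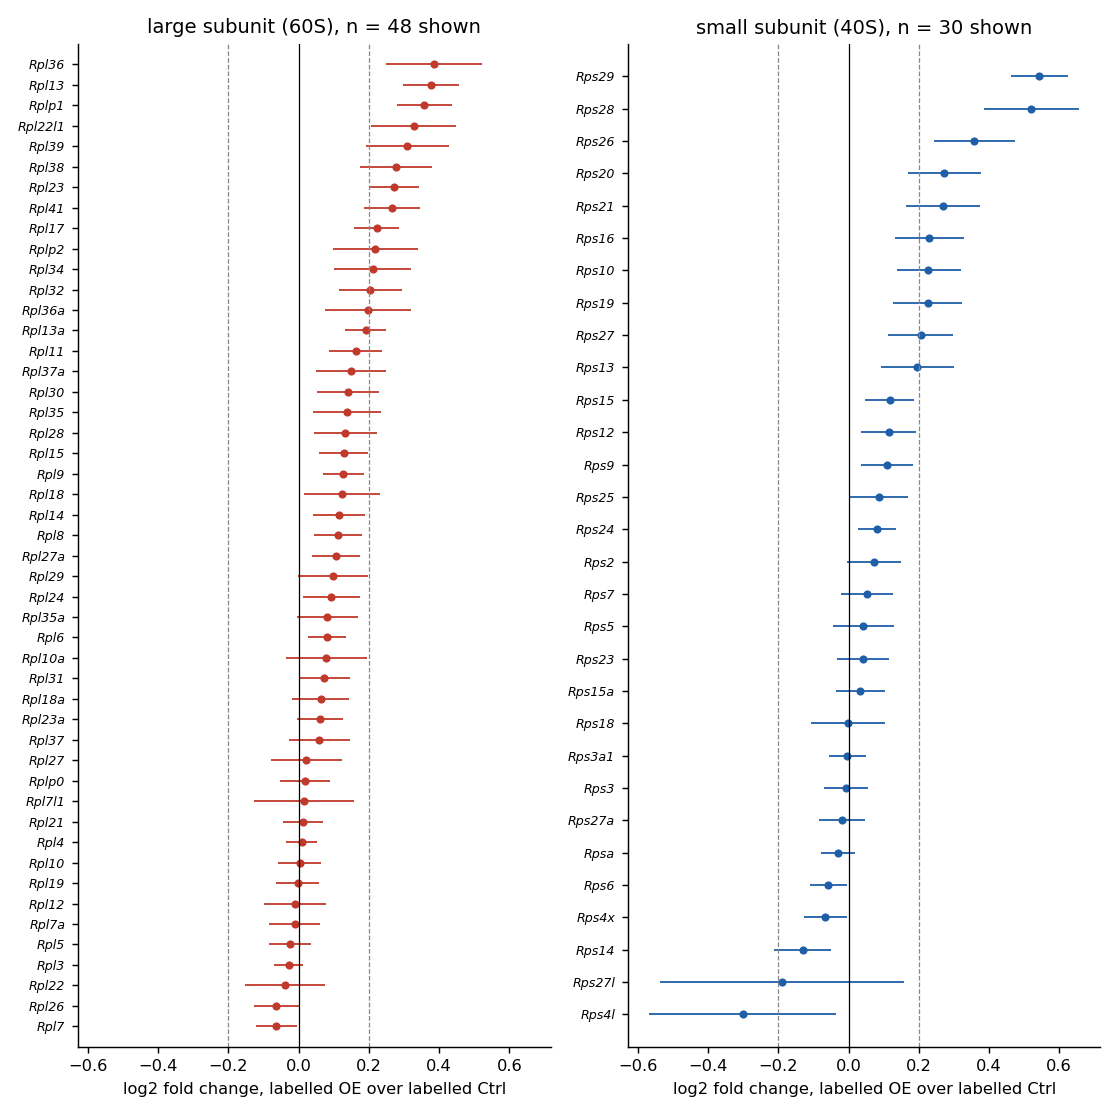
Log2 fold change (library labelled OE over library labelled Ctrl) of each ribosomal protein gene that reached 100 counts on average, large subunit on the left (48 genes) and small subunit on the right (30 genes; 3 are not shown), sorted by value. Lines are 95% counting intervals, and dashed lines mark log2 0.2 on each side. Values ran from 0.54 for Rps29 to -0.30 for Rps4l, the only gene of the plot lower by more than log2 0.2.

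The large subunit had 51 members, of which 49 were tested. Their median log2 fold change was 0.11, with 41 above 0. Past log2 0.2, 13 were higher (26.5%) and 0 lower, against 17.9% and 16.6% of all tested genes. Rpl36, a protein that bacterial ribosomes lack, had 709 counts in the library labelled Ctrl against 1150 in that labelled OE, for a log2 fold change of 0.38 (interval 0.25 to 0.52). Rpl13 had 2073 and 3347 counts, also 0.38 (interval 0.30 to 0.46). Rpl39, a very small protein that lines the peptide tunnel, had 967 and 1489 counts and changed by 0.31 (interval 0.19 to 0.43). The 3 intervals overlap each other, so no order among these genes is given. Rpl38, known from mouse mutants in which the axial skeleton is patterned wrongly, had 1276 and 1920 counts, a difference of 0.28 (interval 0.17 to 0.38). Rpl23, 1 of the ribosomal proteins that bind the p53 regulator Mdm2, had 2725 and 4088 counts and differed by 0.27 (interval 0.20 to 0.34). Rpl17, Rpl34 and Rpl32 were just past log2 0.2, with 0.22, 0.21 and 0.20, while Rpl36a at 0.20 (0.197 before rounding) was just inside it. Scaled by total counts, Rpl34 (0.195) and Rpl32 (0.188) were inside it too.

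Rpl41 encodes the shortest known ribosomal protein, a helix that bridges the subunits. There were 2143 counts of it in the library labelled Ctrl against 3202 in that labelled OE, for a log2 fold change of 0.27 (interval 0.19 to 0.35). Its gene lies on the minus strand at chr10:128548114-128549305 (GRCm38, GENCODE M21). The coding sequence is shown because it is the shortest of the set, at 78 bases for 25 residues, with the start and stop codons in capitals.
Rpl41: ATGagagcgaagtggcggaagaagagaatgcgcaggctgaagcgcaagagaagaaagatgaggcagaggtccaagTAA

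The lowest values of the large subunit were close to 0. Rpl7 had 4322 and 5136 counts, for a log2 fold change of -0.064 (interval -0.12 to -0.0055), and Rpl26 had 3699 and 4397 counts, also -0.064 (interval -0.13 to -0.00026). For Rpl22, which binds several viral and cellular RNAs outside the ribosome, 1168 and 1412 counts gave -0.039 (interval -0.15 to 0.074). Rpl3 had the most counts of the set, 8518 and 10377, with a value of -0.028 (interval -0.070 to 0.013). Of these 4 intervals, those of Rpl7 and Rpl26 ended just below 0.

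All 33 members of the small subunit were tested. Their median log2 fold change was 0.075, with 22 above 0. Past log2 0.2, 10 were higher (30.3%) and 1 was lower (3.03%), against 17.9% and 16.6% of all tested genes. The largest differences of the whole set, among genes reaching 100 counts on average, were here. Rps29, a zinc-binding protein of the 40S head, had 1892 counts in the library labelled Ctrl against 3425 in that labelled OE, for a log2 fold change of 0.54 (interval 0.46 to 0.62). Rps28, which lies where the mRNA leaves the 40S subunit, had 697 and 1242 counts, a difference of 0.52 (interval 0.39 to 0.66). Rps28 lies on the minus strand of GRCm38 at chr17:33819027-33824562. Its coding sequence, of 210 bases, is shown because this gene joins a large difference with 1 of the shortest transcripts of the set. Start and stop codons are in capitals.
Rps28: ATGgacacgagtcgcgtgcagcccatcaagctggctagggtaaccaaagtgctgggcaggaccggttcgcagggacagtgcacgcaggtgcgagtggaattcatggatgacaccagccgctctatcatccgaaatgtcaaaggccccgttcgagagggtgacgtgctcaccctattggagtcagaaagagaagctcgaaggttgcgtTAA

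Rps26, a neighbour of Rps28 at the mRNA exit, had 1003 and 1597 counts and a log2 fold change of 0.36 (interval 0.24 to 0.47). Rps20, a protein of the 40S head, had 1244 and 1867 counts and differed by 0.27 (interval 0.17 to 0.38). Rps21 had 1200 and 1796 counts, with the same difference of 0.27 (interval 0.16 to 0.38). Also past log2 0.2 in the small subunit were Rps16 (0.23), Rps10 (0.23), Rps19 (0.23) and Rps27 (0.21, or 0.19 when scaled by total counts). Of these, Rps10 is a 40S head protein that is marked with ubiquitin when ribosomes collide. Rps19, the gene most often mutated in Diamond-Blackfan anaemia, had 1416 counts in the library labelled Ctrl against 2057 in that labelled OE. The 10 genes on the higher side of this subunit all had intervals above 0.

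On the lower side, Rps14, a platform protein whose loss underlies the anaemia of 5q- syndrome, had 2302 counts in the library labelled Ctrl against 2612 in that labelled OE, for a log2 fold change of -0.13 (interval -0.21 to -0.049). Rps6 had 5564 and 6644 counts and differed by -0.057 (interval -0.11 to -0.0056). Rpsa, also known as the laminin receptor, had 6246 and 7601 counts and a value of -0.030 (interval -0.078 to 0.019). Of these 3 genes, the counts of Rps14 and Rps6 were split beyond counting error, and all 3 lay within log2 0.2 of equal levels.

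Proteins that work together in the ribosome did not have equal values. The P stalk recruits elongation factors to the large subunit and is made of Rplp0 and the small acidic proteins Rplp1 and Rplp2. Rplp0 had 2815 counts in the library labelled Ctrl against 3542 in that labelled OE, for a log2 fold change of 0.018 (interval -0.054 to 0.090). Rplp1 had 2087 and 3324 counts and changed by 0.36 (interval 0.28 to 0.44), and Rplp2 had 929 and 1343 counts and changed by 0.22 (interval 0.097 to 0.34). The interval of Rplp0 did not reach those of its partners. Within the 5S RNP, the particle of 5S RNA with Rpl5 and Rpl11 that can hold Mdm2 when ribosome assembly fails, Rpl5 had 4012 and 4900 counts (-0.025, interval -0.085 to 0.036) and Rpl11 had 2455 and 3415 (0.16, interval 0.088 to 0.24). Their intervals did not overlap either. Of 10 proteins around the exit of the peptide tunnel, 3 were higher by more than log2 0.2, with a median of 0.083, and of 7 at the decoding site and the mRNA channel 2 were, with a median of 0.11. For 11 proteins of the 40S head, beak and platform the count was 5 and the median 0.11, and 0 members of these 3 groups were lower by as much. The shares higher were 30.0%, 28.6% and 45.5%, beside 17.9% of all tested genes and 28.0% of all members, and nothing is read from them for these groups.

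Several ribosomal proteins have a second gene that is used in few tissues. Rpl10l and Rpl39l, which are known from the testis, had 0 and 0 counts and 2 and 0 counts, where a count of 0 allows up to 3. No fold change is given for either. Their coding sequences were 84.8% and 85.3% identical, base by base, with those of their parents Rpl10 and Rpl39, which had 3946 and 967 counts in the library labelled Ctrl. Rpl3l, known from skeletal muscle and heart, had 7 counts in the library labelled Ctrl against 13 in that labelled OE, for a log2 fold change of 0.55 (interval -0.85 to 2.15). It lay exactly at the minimum of 10 counts and its difference was not detectable at this depth. These 3 genes were thus at or near 0 counts in both libraries while their parents were abundant.

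The other paralogs were better covered. Rpl22l1 had 912 counts in the library labelled Ctrl against 1422 in that labelled OE, for a log2 fold change of 0.33 (interval 0.21 to 0.45), and its interval lay above that of Rpl22. Rps27l, a p53 target, had 135 and 147 counts and differed by -0.19 (interval -0.54 to 0.16), whereas Rps27 had 1612 and 2309 counts and differed by 0.21 (interval 0.11 to 0.30). The intervals of Rps27l and Rps27 overlapped, and their coding sequences were 76.1% identical. Rpl7l1, which takes part in ribosome assembly, had 722 and 906 counts (0.014, interval -0.13 to 0.16). Rps4l had 235 counts in the library labelled Ctrl against 237 in that labelled OE, for a value of -0.30 (interval -0.57 to -0.034), and was the 1 member lower by more than log2 0.2. GENCODE M21 annotates Rps4l as a transcribed processed pseudogene of 1 exon, and its parent Rps4x had 3961 and 4701 counts and a value of -0.066 (interval -0.13 to -0.0047).

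By position, the 84 genes lay on 19 chromosomes, with 14 of them on chromosome 7. The 4 X-linked members did not move together. Rpl36a had 932 and 1327 counts and differed by 0.20 (interval 0.075 to 0.32), and Rpl39 differed by 0.31. Rpl10 had 3946 and 4912 counts and a value of 0.0028 (interval -0.058 to 0.064), while Rps4x was at -0.066. Among 18 genes mutated in Diamond-Blackfan anaemia, an inherited failure to make red blood cells, 16 were above 0 and 6 were higher by more than log2 0.2, with a median of 0.13. Over all tested genes these shares are 51.1% and 17.9%, and over all members 76.8% and 28.0%. Rps27a, whose product is joined to ubiquitin when made, had 3451 and 4232 counts, for a log2 fold change of -0.019 (interval -0.084 to 0.046).

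The start of the transcript was examined because TOP mRNAs are controlled through it. RefSeq promoter windows of 300 bases (GRCm38.p6) were at hand for 63 of the 84 genes, with 75 annotated starts. A C followed by 4 bases that are each C or T, read on the transcribed strand, began exactly at 13 of the 75 starts (17.3%), against 2.51% of all 32851 starts. Within 5 bases of the start on either side it was found at 41.3% of the members' starts and at 18.3% of all starts. Shown next are 6 genes with this tract at their only annotated start, picked to span the log2 fold changes from -0.057 to 0.28. Each window holds 10 bases before and 20 bases from the start, 5′ to 3′, and the pyrimidine run is in capitals.
Rps6: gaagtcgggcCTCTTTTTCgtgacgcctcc
Rps18: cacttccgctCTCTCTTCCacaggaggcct
Rpl28: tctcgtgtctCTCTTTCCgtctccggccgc
Rps27: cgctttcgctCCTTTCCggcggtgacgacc
Rps10: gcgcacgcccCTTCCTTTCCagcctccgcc
Rpl38: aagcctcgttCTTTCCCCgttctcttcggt

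These windows lie at chr4:86857348-86857377 for Rps6, chr17:33955646-33955675 for Rps18, chr7:4792955-4792984 for Rpl28, chr3:90213629-90213658 for Rps27, chr17:27635225-27635254 for Rps10 and chr11:114668570-114668599 for Rpl38. Rpl28 and Rpl38 are on the plus strand and the others on the minus strand. Counted from the annotated start on, Rps6 and Rps18, with 9 pyrimidines, had log2 fold changes of -0.057 and -0.0028. Rps10, with 10, had 0.23 and Rpl38, with 8, had 0.28. Over the 13 genes with the tract at a start, the median was 0.13 and values ran from -0.057 to 0.28, and over the 48 tested genes with a promoter window but no tract at a start, the median was 0.084. The 6 genes printed were picked for the tract and for this spread, so they show no relation of the tract to the values. A match of these letters is a description of the annotated start and not of a start used in this tissue.

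What the members with high values had in common was a short mRNA. Sorted by coding length, the 27 shortest, from 78 to 402 bases, had a median log2 fold change of 0.21 with 14 higher by more than log2 0.2. The middle 27, from 408 to 579 bases, had a median of 0.097 with 6 higher, and the longest 27, from 585 to 1260 bases, had a median of 0.018 with 3 higher. Across the 81 members with a coding length, Spearman's correlation of coding length with log2 fold change was -0.48, and for transcript length it was -0.35 across 82. These are descriptions across genes that share both libraries. Members of higher mean count also had lower values, with a correlation of -0.42, and GC content had a correlation of 0.20.

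Other genes also had lower values with greater length. In the same ranges of coding length, 630, 859 and 4411 other genes had medians of 0.11, 0.060 and 0.030, with 35.4%, 23.6% and 18.3% higher by more than log2 0.2. In the shortest range the members were above the other genes, at 0.21 against 0.11, and in the longest they were not, at 0.018 against 0.030. By transcript length the classes were closer. Under 500 bases of transcript, 99 other genes had a median log2 fold change of 0.21, and 18 members had one of 0.21. From 500 to 750 bases the medians were 0.14 for 334 other genes and 0.097 for 23 members, and from 750 to 1000 bases they were 0.088 for 495 and 0.056 for 22. From 1000 to 1500 bases, 1406 other genes had a median of 0.062 and 13 members one of 0.081. Of the 6 members with longer transcripts, 5 were between 1500 and 3000 bases, with a median of -0.0070 against 0.020 for 5222 other genes. Over 3000 bases the 6843 other genes had a median of -0.026, and the 1 member there, Rps20, was at 0.27. In each class up to 1500 bases both medians were above 0, and they were highest in the class under 500 bases. Among genes reaching 500 counts on average, the other genes had medians of 0.17 under 500 bases (30 genes) and -0.018 over 3000 bases (3887 genes).

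**Figure D3:**
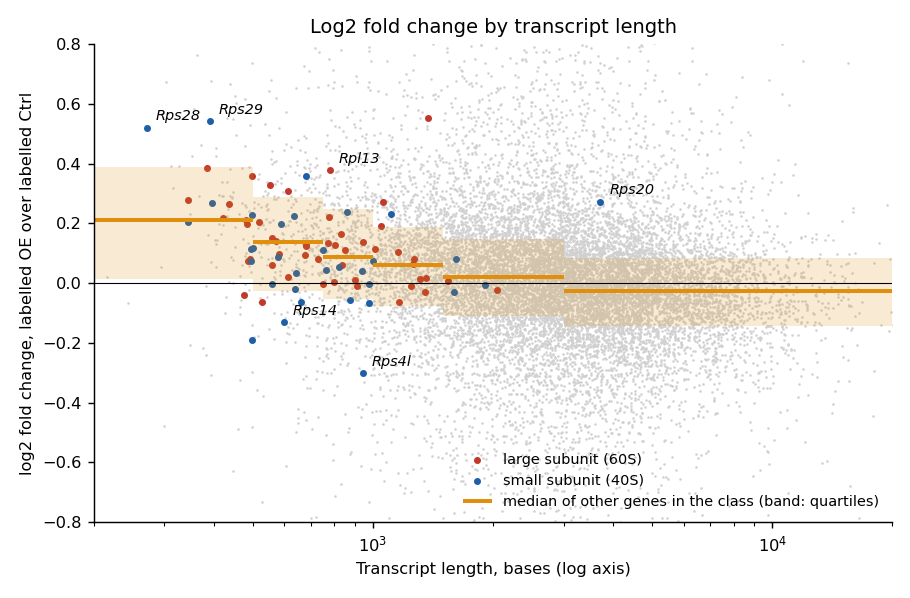
Log2 fold change (library labelled OE over library labelled Ctrl) against transcript length in bases (log axis) for large subunit genes (red), small subunit genes (blue) and other tested genes (grey). Orange lines are medians of the other genes in 6 length classes and orange bands their quartiles. The medians step down from 0.21 under 500 bases to -0.026 over 3000 bases, and 63 of the 82 ribosomal protein genes lie within the band of their class.

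Set beside genes of like transcript length, ribosomal protein genes were no longer shifted as a whole. Of the 82, 63 lay inside the quartiles of the other genes of their length class, 11 above and 8 below. Quartiles by definition hold only the middle part of those other genes, so members lay inside them more often than the other genes do. All genes with a length were then divided by transcript length into 10 bins of equal gene number, and the median of the bin was subtracted from each value. The median of the set was then 0.0072 in place of 0.095, with 43 members above 0 and 39 below. Under 1000 bases, 63 members had a median log2 fold change of 0.11 as measured, with 30.2% higher and 1.59% lower by more than log2 0.2. The 928 other genes of that length had a median of 0.12, with 35.9% higher and 12.2% lower. Members and other short genes thus had like medians, and fewer members were far on the lower side. The members also had more counts, with a median of 2443 against 249 for the other short genes, and the part of counting error in the wider spread of the latter was not tested. Genes under 1000 bases together took 7.43% of the counts in the library labelled Ctrl against 7.68% in that labelled OE. What sets this gradient was not tested.

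**Figure D4:**
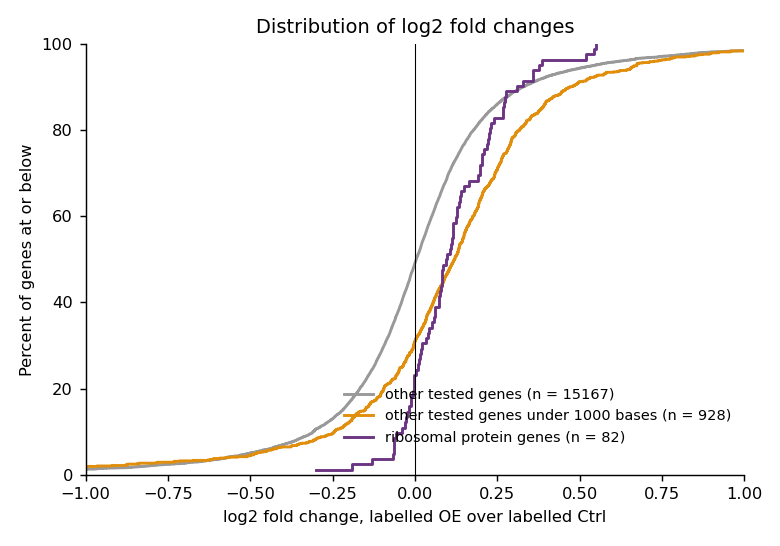
Cumulative distribution of log2 fold changes (x axis; library labelled OE over library labelled Ctrl) in percent of genes (y axis) for 82 ribosomal protein genes (purple), 928 other genes with transcripts under 1000 bases (orange) and all 15167 other tested genes (grey). The purple curve crosses 50 percent close to the orange one, at a median of 0.095 against 0.12, and rises more steeply.

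After this subtraction, some members still stood off by more than log2 0.2. The shortest bin held all 63 members under 1000 bases and reached at least 1163 bases. The same 0.10 was subtracted from each member in it, so differences by length within that bin remained. On the higher side there were 10 (12.2%), against 15.7% of all genes with a length, so no excess over other genes is seen here. They were Rps29 (0.44 above the median of its bin), Rps28 (0.42), Rps20 (0.30), Rpl36 (0.28), Rpl13 (0.28), Rplp1 (0.26), Rps26 (0.26), Rpl22l1 (0.22), Rpl39 (0.21) and, on 7 and 13 counts with an interval that held 0, Rpl3l (0.50). Of those with transcripts under 500 bases, Rpl36 and Rplp1 lay within the quartiles of the other genes of that class. Rps29 and Rps28 lay above its upper quartile of 0.39. On the lower side there were 3, against 16.6%, namely Rps4l (-0.40), Rps14 (-0.23) and, on 135 and 147 counts with an interval that held 0, Rps27l (-0.29). Rps20 has a transcript of 3706 bases in the annotation used here, far from its coding length of 360, so its bin depends on that annotation. For the P stalk the values by this measure were 0.26 for Rplp1, 0.12 for Rplp2 and -0.036 for Rplp0. Other genes under 500 bases had a higher median than this bin, at 0.21 as measured. Rplp1 (0.36 as measured) and Rplp2 (0.22) lay within the quartiles of that class, so a P stalk difference beyond length is not shown.

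Some ribosomal proteins carry other symbols and were outside the rule. Fau, which encodes Rps30 behind a ubiquitin-like part, had 1608 counts in the library labelled Ctrl against 2214 in that labelled OE, for a log2 fold change of 0.15 (interval 0.055 to 0.24). Rpl36al had 773 and 1104 counts (0.20, interval 0.067 to 0.34). Gnb2l1, the former symbol of the 40S scaffold protein Rack1, had 2338 and 2725 counts (-0.092, interval -0.17 to -0.012) and the longest of these 3 transcripts, at 1447 bases. By the labels, Fau and Rpl36al were higher in OE and Gnb2l1 was lower.

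Other parts of the translation machinery were closer to equal. Of 9 elongation factors 0 passed log2 0.2 on either side, with a median of 0.040. Their ends were Eef1a2, the elongation factor of neurons and muscle (0.087), and Eef1e1 (-0.072). Among 42 initiation factors 1 was higher and 0 lower, with a median of 0.027, from 0.20 for Eif3f, at 1295 and 1843 counts, to -0.11 for Denr among those reaching 100 counts on average. Further genes with TOP mRNAs, 20 in number and including some of those factors, had a median of 0.061 with 1 higher and 0 lower. The 1 higher was Btf3, a subunit of the nascent-chain complex NAC, at 1480 and 2132 counts and 0.21. Over all tested genes, 17.9% were higher and 16.6% lower by more than log2 0.2. These lists had longer transcripts than the ribosomal protein genes, with median lengths of 2084, 2260 and 1570 bases against 740, and after the same length subtraction their medians were 0.013, 0.0046 and 0.011.

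Upstream of the ribosome the values were mixed. Among 74 ribosome assembly factors 6 were higher and 3 lower by more than log2 0.2, with a median of 0.051, from Gnl3 (0.26) to Rrp1b (-0.30). RNA polymerase I, which makes the large ribosomal RNAs, and its factors had 14 genes with a median of -0.032, 1 higher and 1 lower. For 19 genes of mTOR signalling the median was 0.032, with 2 higher and 3 lower, and Deptor, an inhibitor of mTOR, had the lowest value among those reaching 100 counts on average, -0.27. The 11 tested snoRNA host genes, many of them noncoding TOP transcripts, had a median of 0.23 with 6 higher and 0 lower. In the order given, 8.11%, 7.14%, 10.5% and 54.5% of these 4 lists were higher, beside 17.9% of all tested genes. The shares lower were 4.05%, 7.14%, 15.8% and 0%, beside 16.6%. For mTOR signalling both shares were under those of all tested genes, and nothing is read from its 2 and 3 genes.

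Other large complexes of many small proteins had medians between 0.081 and 0.19. The mitochondrial ribosome had 76 genes with a median of 0.12, 22 higher and 0 lower by more than log2 0.2. For 77 tested genes of the respiratory chain the median was 0.19, with 32 higher and 1 lower. For 37 of the proteasome it was 0.081, with 4 higher and 2 lower. The shares higher were 28.9%, 41.6% and 10.8%, beside 17.9% of all tested genes. The shares lower were 0%, 1.30% and 5.41%, beside 16.6%. After the length subtraction the medians of these lists were 0.087, 0.093 and 0.038, and that of the cytosolic ribosome was 0.0072. Among genes reaching 100 counts on average, the highest of the mitochondrial list, Mrpl34, had 148 and 274 counts (0.57), and that of the respiratory chain, Ndufb2, had 422 and 740 (0.50). Both have short transcripts, of 607 and 455 bases. As no set test was run, these medians are descriptions of the lists.

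**Figure D5:**
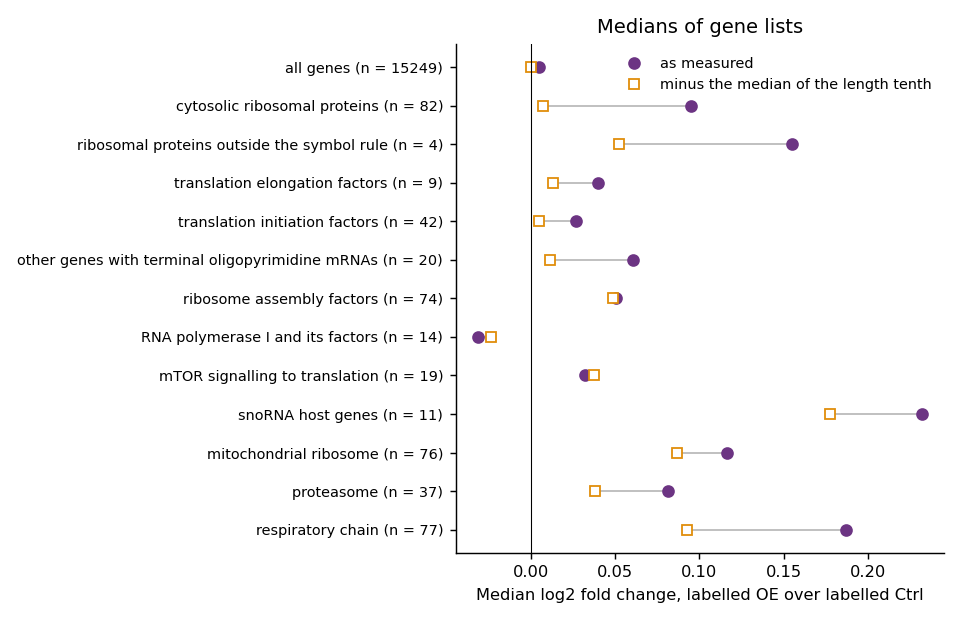
Median log2 fold change (library labelled OE over library labelled Ctrl) of all tested genes, the cytosolic ribosomal proteins and 11 other gene lists, as measured (filled circles) and after the median of all genes in the same bin of transcript length (10 bins) was subtracted (open squares), with the number of tested genes per list. For the cytosolic ribosome the median moves from 0.095 to 0.0072, and for the respiratory chain from 0.19 to 0.093.

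Cell type markers also differed between these libraries. By the labels, all 11 DA neuron markers were higher in OE (median 1.29 on the log2 scale), and their summed level was 1451 CPM in the library labelled Ctrl against 3370 CPM in that labelled OE. Of 10 thalamus markers 8 were lower by more than log2 0.2 and 1 was higher, with summed levels of 955 and 642, and Gbx2 was at 0 counts in the library labelled OE. Of 9 pan-neuronal markers 4 were higher and 1 lower, with sums of 5785 and 6547. Among glia and vessels, 7 of 10 oligodendrocyte markers were lower (sums of 20777 and 17395). So were 3 of 8 microglia markers (321 and 264) and 3 of 5 endothelial markers (252 and 229). Of 8 astrocyte markers 1 was lower (3504 and 3231), and 0 were higher in each of these lists. Over all tested genes, 17.9% were higher and 16.6% lower by more than log2 0.2. The astrocyte share lower, 12.5%, was under that of all tested genes. Gbx2 was the only marker of these 7 lists at 0 in a library, so markers of neurons, glia and vessels were all present beside those of the cell type named in the labels. The ribosomal protein genes, which every one of these cell types expresses, summed to 11931 and 12654 CPM. The part of cell makeup in their values was not tested.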

How the data were processed

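Polyadenylated RNA of 2 ventral midbrain libraries (stranded kit, paired reads of 50 bases) was sequenced and processed by a company's in-house pipeline. The authors deposited RSEM expected counts per gene without scaling. The submitters' processing notes name build mm10, and the aligner and annotation are not given in the sources used here. Expected counts were rounded, scaled by TMM (edgeR 4.0.16, R 4.3.3) and turned into log2 fold changes with a pseudocount of 0.5 normalized counts for genes that reached 10 counts on average. Intervals (95%) followed Clopper and Pearson, exact, for the share of a gene's counts in 1 library. RSEM shares reads between near-identical genes: 14 members (among them Rpl26, Rpl3, Rps3, Rps15a, Rpl37, Rps2, Rpl31, Rpl14, Rpl32, Rplp2, Rps19, Rpl22l1 and Rps26) had non-whole counts, so their split with copies is an estimate. Their median log2 fold change was 0.074, and that of tested members with whole counts was 0.10.

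Transcripts came from GENCODE M21 (GRCm38), 1 per gene: the shortest complete coding transcript with the best APPRIS tag, else the longest transcript. All 84 symbols matched it. This definition replaced another after members' values by length had been seen. Genes named were chosen by a rule: the 10 highest levels per kilobase, the 8 highest and 8 lowest log2 fold changes among members reaching 100 counts on average, all members past log2 0.2, members of fixed roles, and the ends of each other list. The members, lists and rules were chosen with earlier results of these data known. The 6 start windows and the gene given just inside the threshold were picked after their values were seen. The steps were tested on simulated data. Alternatives were other scalings (total counts, upper quartile, DESeq2 1.42.0 size factors, totals without mitochondrially encoded or ribosomal protein genes), a pseudocount of 5, other filters, members with whole counts, subtraction of medians by length, GC content or level, and a threshold of log2 0.1. Some genes and sequences are not reported here by name, and their counts enter the totals of the set.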

Additional observations from a re-analysis of the deposited data

How the results depend on the processing

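No paired analysis was possible because only 1 library stands for a group. The median log2 fold change of the ribosomal protein genes stayed above 0 under every alternative tried and moved by more than 1.5 times only when medians by length were subtracted, to 0.0072 with 10 bins of transcript length and, with 2 alternatives chosen after seeing the data, to 0.011 with the transcript length defined first and 0.029 with coding length. Under these 3, in this order, members higher by more than log2 0.2 numbered 10, 10 and 9 in place of 23, members lower 3, 3 and 2 in place of 1, intervals above 0 numbered 21, 23 and 29 in place of 44, and intervals below 0 numbered 17, 16 and 11 in place of 6. These counts are of 82, 82 and 81 members. Over all genes, 15.7%, 15.6% and 15.5% were then higher and 16.6%, 16.5% and 16.1% lower. For the intervals such shares are not given. Subtraction by GC content or by mean count left the median at 0.086 and 0.089. Scaling by total counts, by totals without mitochondrially encoded genes and by totals without the ribosomal protein genes gave 20 higher members each in place of 23, with Rpl32, Rpl34 and Rps27 no longer past log2 0.2, 2 lower members each, with Rps27l now past it, and a log2 fold change of the summed counts of 0.069, 0.072 and 0.070. With no filter beyond a count there were 2 lower members, since Rpl39l then entered, against 23.4% of all genes under that filter. At a threshold of log2 0.1, 40 members were higher and 3 lower, against 30.6% and 28.8% of all tested genes. The median of all tested genes was between -0.011 and 0.0046 under the scalings, so members as close to 0 as that shift can take either sign. Nr2f2 stayed between -1.08 and -1.06. All 498 values of 83 single genes under the 5 scalings and the pseudocount stayed within the genes' counting intervals. A scaling moves every gene by nearly the same small amount, and the smallest interval half-width of a tested member was 0.041. Members could thus hardly leave their intervals, and this is no check of single values. The length subtraction was not among these alternatives. Depth limits single genes: a log2 difference under about 0.080 was within the counting interval of a typical member, and 1 library per group leaves the spread between mice unmeasured.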
